A study of Callithrix jacchus with 3 samples.

Results

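The genes described here are those that write, erase and read N6-methyladenosine (m6A) on RNA. They were chosen by name, as 10 symbols looked up among the Ensembl gene IDs of the count files, and 9 of the 10 had an ID there, of 30811 genes listed in all. The 9 were the writers METTL3, METTL14 and WTAP, the eraser FTO, and the readers YTHDF1, YTHDF2, YTHDF3, YTHDC1 and IGF2BP1. ALKBH5, which encodes the other m6A demethylase, had no mapped ID and was not analysed here. The cells came from attempts to derive extended pluripotent stem cells from embryonic stem cells of the common marmoset, and are called EPSC-like after the submitters' design text. The data are 3 RNA-seq libraries of 1 group, with sample titles that differ only in the replicate number, so they may come from 1 line. No label names a medium, a passage, a treatment or separate cultures, and there was no group of parental cells. P-values over the 3 libraries therefore reflect no more than how far these libraries vary, and that variation may be technical.

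m6A is the most common internal modification of messenger RNA. METTL3 and METTL14 form the core of a nuclear methyltransferase, and WTAP holds this core together with further subunits. Demethylases can remove the mark, and reader proteins that bind it, or bind methylated transcripts, direct splicing, export, translation or decay. In pluripotent cells of mouse and human, the writers are known to limit the lifetime of transcripts that encode pluripotency factors and thereby to affect the exit from pluripotency.

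Total counts were 52327369, 55224475 and 40593244 in replicates 1, 2 and 3. Of the 9 marker genes listed for pluripotent cells, 8 had an ID and all 8 were called above 1 CPM (counts per 1000000 counts). So were 6 of 6 fibroblast markers with an ID. The counts were 2 of 4 for trophoblast and for endoderm, 2 of 3 for neural and 1 of 3 for blood markers. Among all genes tested the share was 56%, and among those with a symbol 78.3%. The pluripotent markers summed to 6504, 6698 and 6418 CPM across replicates 1, 2 and 3. DNMT3B alone gave 2628, 2703 and 2734 CPM of that sum. Summed levels in the same order were 682, 638 and 478 CPM for 6 of 8 fibroblast markers, 17.0, 18.1 and 10.5 CPM for 4 of 7 trophoblast markers and 13.1, 13.4 and 5.05 CPM for 4 of 6 endoderm markers. They were 7.03, 7.49 and 3.73 CPM for 3 of 5 neural markers and 4.80, 4.49 and 6.30 CPM for 3 of 5 blood markers. COL1A1 alone gave 546, 516 and 404 CPM of the fibroblast sum. The trophoblast marker CYP19A1 and the endoderm marker AFP had no counts. Replicate 3 stood apart from the other libraries. Among 4318 genes that averaged 50 CPM or more, it lay farther from both others than these lay from each other in 86.5%, against 6.48% for replicate 1 and 7.04% for replicate 2. Each result below is therefore given by library.

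All 9 genes were expressed well above the level of 1 CPM in each library. Their values ran from 59.2 CPM, for YTHDF1 in replicate 3, to 277 CPM, for YTHDF2 in replicate 3. All 9 were called above 1 CPM, with adjusted p-values between 8.13e-14 and 2.74e-11 (edgeR quasi-likelihood F statistic, two-sided, Benjamini-Hochberg adjusted over 23432 genes). Of all genes tested, 56% were called above that level, and of those with a symbol 78.3%. Against a level of 10 CPM, all 9 were again called above it, and 37.6% of all genes tested. CPM values are not corrected for gene length, so they compare libraries for 1 gene and give no order of abundance among genes.

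**Figure D1:**
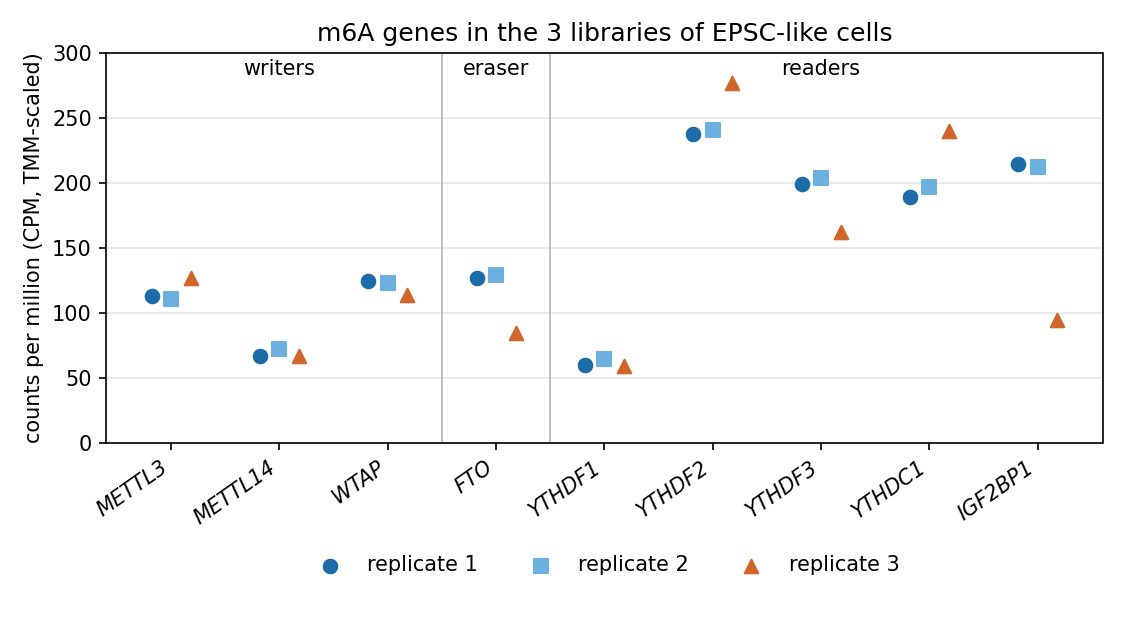
Level of each of the 9 genes (y axis, TMM-scaled CPM) in replicate 1 (circles), replicate 2 (squares) and replicate 3 (triangles), grouped by role. Replicates 1 and 2 lie close together for every gene shown, and replicate 3 lies farthest from them for IGF2BP1, at 94.2 CPM against 214 and 213 CPM.

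The catalytic subunit of the writer is encoded by METTL3. Its level was 113, 111 and 127 CPM across replicates 1, 2 and 3 (117 ± 8.64, SD, n = 3), from 5928, 6085 and 5169 counts. Replicate 3 was the highest. Its log2 ratio was 0.16 over replicate 1 and 0.20 over replicate 2 (adjusted p = 1.87e-08 and 4.34e-12, exact conditional binomial test), while replicates 1 and 2 were not distinguished (log2 ratio −0.03, 95% interval −0.09 to 0.02). That test compares the counts of 2 libraries and no conditions, and its intervals cover counting error only.

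METTL14 encodes the partner that binds the RNA substrate and supports METTL3 without being the catalytic subunit. It stood at 66.8, 72.2 and 66.8 CPM across replicates 1, 2 and 3 (68.6 ± 3.12, SD, n = 3). Here replicate 2 was the high library, and replicates 1 and 3 did not differ detectably (log2 ratio 0.00, 95% interval −0.07 to 0.07). METTL14 was higher in replicate 2 than in replicate 1 by 0.11 on the log2 scale (adjusted p = 0.0187, exact conditional binomial test), a call lost when counts were halved (adjusted p = 0.412).

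WTAP, the adaptor that brings the writer to nuclear speckles, was measured at 124, 123 and 114 CPM (121 ± 5.82, SD, n = 3). Replicate 3 was the lowest, with log2 ratios of −0.13 over replicate 1 and −0.11 over replicate 2 (adjusted p = 1.25e-05 and 9.47e-05, exact conditional binomial test). The writers thus did not differ between libraries in 1 direction. In replicate 3, METTL3 was higher, WTAP was lower, and METTL14 equalled its level in replicate 1. Against replicate 2, METTL14 was lower in replicate 3 (log2 ratio −0.11, adjusted p = 0.00472, exact conditional binomial test). That adjusted p was the largest of the 9 genes in this pair.

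Ratios of counts within a library do not depend on the scaling of libraries. The log2 ratio of METTL14 over METTL3 was −0.76, −0.62 and −0.92 in replicates 1, 2 and 3, with a mean of −0.77 ± 0.15 (SD, n = 3). That of WTAP over METTL3 was 0.14, 0.16 and −0.15. For WTAP over METTL3, replicates 1 and 2 agreed within about 1 counting standard error, which was 0.026 in replicate 1, and replicate 3 lay below them. Gene length enters these ratios equally in each library, so only their variation over libraries is described.

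**Figure D2:**
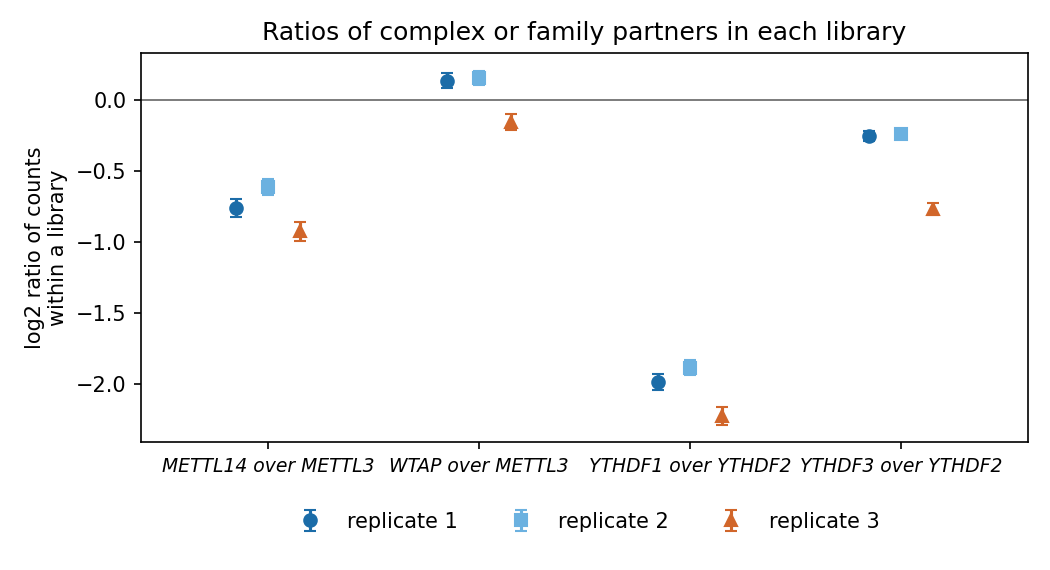
Log2 ratio of counts of 2 genes within each library (y axis) for METTL14 over METTL3, WTAP over METTL3, YTHDF1 over YTHDF2 and YTHDF3 over YTHDF2. Bars are 95% counting intervals. Replicate 3 (triangles) has the lowest ratio of the 3 libraries in each of the 4 pairs. It lies farthest from the others for YTHDF3 over YTHDF2, at −0.77 against −0.25 and −0.24 in replicates 1 and 2. The ratios share the denominators METTL3 and YTHDF2, which are highest in replicate 3 at 127 and 277 CPM, so they are not independent.

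FTO encodes a demethylase that acts on m6A and on the related modified base next to the messenger cap. Its level was 127, 129 and 84.4 CPM across replicates 1, 2 and 3 (113 ± 25.2, SD, n = 3), and 128 CPM as the mean of replicates 1 and 2. Replicate 3 was low, and the other libraries lay close together. The level in replicate 1 was 1.51-fold that in replicate 3 (95% counting interval 1.45 to 1.57) and that in replicate 2 was 1.53-fold (1.47 to 1.59). Both intervals include 1.5-fold, so FTO lies at the border of that criterion. The spread of FTO over the libraries, an SD of 0.35 on the log2 CPM scale, exceeded that of 90.02% of genes averaging 50 CPM or more.

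The YTHDF proteins are cytoplasmic readers that bind m6A through a YTH domain. YTHDF2, which is known to recruit the CCR4-NOT deadenylase and so promote decay of methylated transcripts, stood at 238, 240.4 and 277 CPM across replicates 1, 2 and 3 (252 ± 21.9, SD, n = 3). YTHDF3 stood at 199, 204 and 162 CPM (189 ± 22.7). YTHDF1 stood at 59.9, 64.9 and 59.2 CPM (61.4 ± 3.13). The paralogues differed in where replicate 3 lay. It was above both other libraries for YTHDF2 and below both for YTHDF3. For YTHDF1, it lay within 0.02 log2 units of replicate 1 and below replicate 2 (log2 ratio −0.13).

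For YTHDF2, the log2 ratio of replicate 3 was 0.22 over replicate 1 and 0.20 over replicate 2 (adjusted p = 1.05e-30 and 4.82e-27, exact conditional binomial test). For YTHDF3, the same ratios were −0.30 and −0.33 (adjusted p = 4.30e-38 and 4.98e-48). Within a library, the log2 ratio of YTHDF3 over YTHDF2 was −0.25, −0.24 and −0.77 in replicates 1, 2 and 3. This ratio varied most of the 4 ratios computed, with an SD of 0.30. That of YTHDF1 over YTHDF2 was −1.99, −1.89 and −2.22. YTHDF1 was higher in replicate 2 than in replicate 1 by 0.12 on the log2 scale (adjusted p = 0.0211, exact conditional binomial test), a call lost with counts halved (adjusted p = 0.429). The treatment of reads shared by several genes is not given in the sources used here, so reads common to YTHDF paralogues could have been split or dropped.

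YTHDC1 encodes the nuclear YTH reader, which acts in splicing and export. Its level was 189, 197 and 240.3 CPM across replicates 1, 2 and 3 (209 ± 27.6, SD, n = 3). Replicate 3 was high, with log2 ratios of 0.34 over replicate 1 and 0.29 over replicate 2 (adjusted p = 1.29e-61 and 3.42e-45, exact conditional binomial test). YTHDC1 had the largest excess in replicate 3 among the 9 genes.

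IGF2BP1 encodes a KH-domain protein of embryonic cells that binds methylated transcripts among others and stabilises them. It differed most between libraries of the 9 genes. Counts were 11215, 11693 and 3843 in replicates 1, 2 and 3, or 214, 213 and 94.2 CPM (174 ± 68.9, SD, n = 3). Replicates 1 and 2 were not distinguished from each other (log2 ratio −0.01, 95% interval −0.05 to 0.03), and their mean was 214 CPM. The level was 2.27-fold (95% counting interval 2.19 to 2.36) and 2.26-fold (2.18 to 2.34) that of replicate 3 in replicates 1 and 2.

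The SD of IGF2BP1 on the log2 CPM scale, 0.68, exceeded that of 99.1% of genes averaging 50 CPM or more, whose median was 0.15. The other IGF2BP genes, named here after their values were seen, were also lower in replicate 3, by less. IGF2BP3 stood at 213, 219 and 152 CPM across replicates 1, 2 and 3, and IGF2BP2 at 69.2, 62.8 and 52.6 CPM. The log2 ratios of replicate 3 over replicates 1 and 2 were −0.49 and −0.53 for IGF2BP3, and −0.40 and −0.26 for IGF2BP2. Among genes averaging 50 CPM or more, 46.8% and 47.8% were called lower in replicate 3 than in replicates 1 and 2.

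Some marker genes were low in replicate 3 with IGF2BP1 and FTO, and others were not. Of 8 pluripotent markers, LIN28A, LIN28B and SALL4 were at least 1.5-fold lower in replicate 3 than in both other libraries. LIN28A stood at 674, 725 and 350.3 CPM across replicates 1, 2 and 3, LIN28B at 742, 774 and 470.0 CPM and SALL4 at 135, 134 and 58.5 CPM. The other 5 did not follow them. The log2 ratios of replicate 3 over replicates 1 and 2 were 0.28 and 0.29 for POU5F1, 0.36 and 0.37 for EPCAM, 0.15 and 0.10 for NANOG, 0.06 and 0.02 for DNMT3B, and 0.04 and −0.15 for SOX2. Of the markers with counts, lower by the same rule were 2 of 6 fibroblast markers (COL1A2 and DCN) and 1 of 3 trophoblast markers (GATA2). So were 2 of 3 endoderm markers (GATA6 and FOXA2), 1 of 3 neural markers (MAP2) and 0 of 3 blood markers. Of all genes tested, 8.32% were lower in replicate 3 by this rule. The other fibroblast markers were also lower in replicate 3 than in both others (log2 ratios −0.66 to −0.33). In replicate order, DCN stood at 9.25, 9.71 and 0.98 CPM and GATA2 at 9.12, 9.77 and 0.69 CPM. GATA6 stood at 7.32, 8.06 and 0.49 CPM. FOXA2 stood at 0.61, 1.78 and 0.15 CPM, and also differed between replicates 1 and 2 (log2 ratio of replicate 2 over 1 1.54). The endoderm marker APOA1 was not called different in replicate 3 from replicate 1 or 2 (log2 ratios −0.21 and 0.32). The trophoblast marker KRT7 and the blood marker SPI1 were higher in replicate 3 (log2 ratios 0.26 to 0.52). The part of the marker genes in the levels of IGF2BP1 and FTO was not tested. In bulk libraries, fewer cells of a type and less RNA per cell cannot be told apart.

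The differences of the 9 genes can be read beside those of other genes of like depth. Between replicates 1 and 2, METTL14 and YTHDF1 differed, 2 of 9 genes, against 6.85% of all genes tested and 18.7% of genes averaging 50 CPM or more. Replicate 3 differed from replicate 1 in 7 of 9 genes, 3 higher and 4 lower, against 45.9% of all genes and 86.2% of those of at least 50 CPM, of which 39.4% were higher and 46.8% lower. It differed from replicate 2 in all 9, 3 higher and 6 lower, against 46.3% and 86.6%, with 38.9% higher and 47.8% lower. At these depths, with at least 2415 counts for each of the 9 genes in each library, small differences pass the test.

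When a 1.5-fold difference was also asked for, FTO and IGF2BP1 remained, 2 of 9 genes in both pairs with replicate 3 and 0 of 9 between replicates 1 and 2. The share among genes of at least 50 CPM was 10.4% for replicate 3 over replicate 1, 10.9% over replicate 2 and 0% between replicates 1 and 2. The share that was lower by as much in replicate 3 was 8.38% and 8.96%. Over all genes tested, the share in either direction was 16.3%, 16.8% and 1.07%. The median log2 ratio of the 9 genes was −0.02 for replicate 3 over replicate 1 and −0.11 over replicate 2, beside −0.03 and −0.04 for all genes of at least 50 CPM. In size without sign, the medians were 0.22 and 0.20 for the 9 genes, beside 0.24 and 0.25. The minimum of 50 CPM was chosen after the values were seen, to match the depth of the 9 genes.

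**Figure D3:**
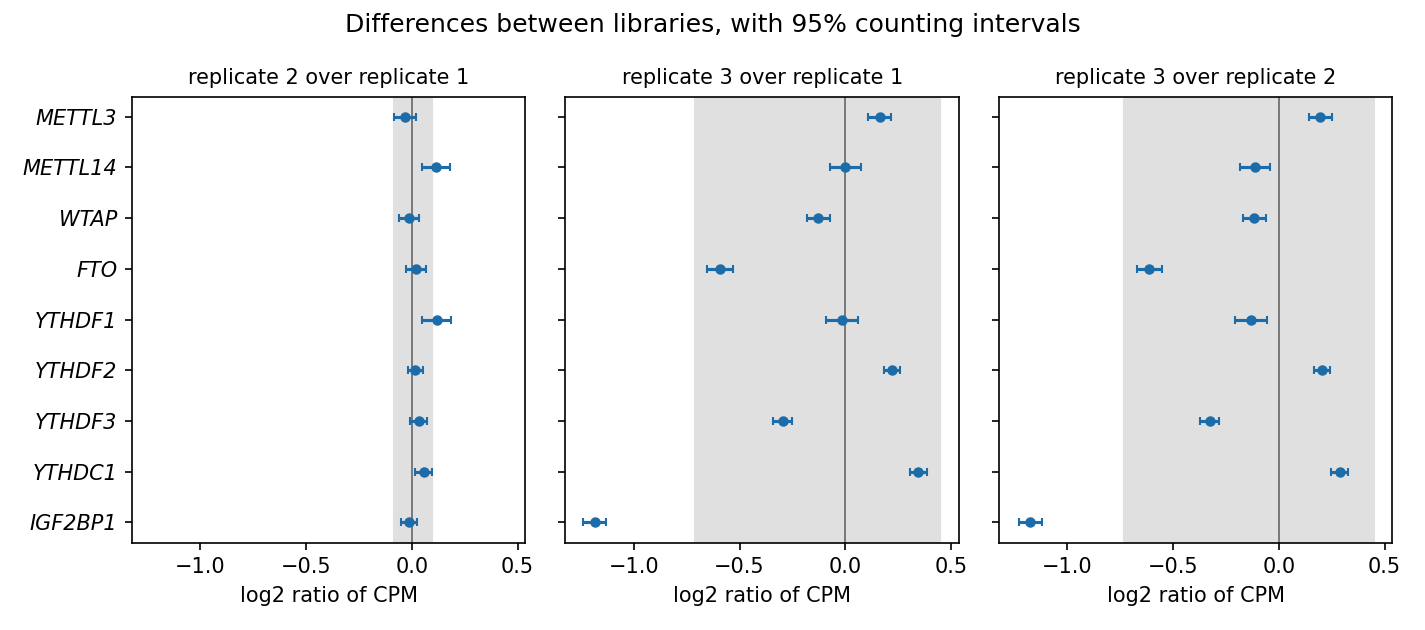
Log2 ratio of CPM (x axis) between each 2 of the 3 libraries for the 9 genes, with 95% counting intervals. The grey band holds the middle 90% of genes averaging 50 CPM or more. In both pairs with replicate 3, IGF2BP1 lies outside the band, at −1.19 and −1.17, and the other 8 genes lie within it. For replicate 2 over replicate 1, METTL14 and YTHDF1 lie just outside it, at 0.11 and 0.12 against an upper edge of 0.097.

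A list of 34 further genes of the pathway was examined, of which 28 had an ID in the files. Of these 28, 27 were called above 1 CPM, beside 56% of all genes tested and 78.3% of those with a symbol, and 1 below, beside 37.8% of all genes tested (edgeR quasi-likelihood, adjusted p). RBM15B, ZCCHC4, RBMX, ELAVL1, ALKBH4 and ALKBH6 were not analysed here. Replicate 3 differed from replicate 1 in 24 of the 28, 11 higher and 13 lower, and from replicate 2 in 24, again 11 higher and 13 lower. That was 85.7% in both pairs, near the 86.2% and 86.6% of genes averaging 50 CPM or more, and above the 45.9% and 46.3% of all genes tested. At 1.5-fold or more, 4 of 28 differed in both pairs, namely METTL16, CNOT1 and ALKBH8, which were lower in replicate 3, and ALKBH3, which was higher. These 14.3% lie near the background, which was 16.3% and 16.8% of all genes tested and 10.4% and 10.9% of genes averaging 50 CPM or more. The minimum of 50 CPM does not match the depth of all 28 genes. METTL16, ALKBH8 and ALKBH3, for example, averaged 27.6, 7.73 and 11.4 CPM.

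The other subunits of the writer complex were all above 1 CPM, 4 of 4. ZC3H13, which anchors the complex in the nucleus, stood at 327, 356 and 448 CPM across replicates 1, 2 and 3, and was highest in replicate 3, as METTL3 was. VIRMA, the large scaffold subunit, stood at 110, 110 and 86.9 CPM and was lowest there, as WTAP was. Of genes averaging 50 CPM or more, 39.4% were called higher in replicate 3 than in replicate 1, and 46.8% lower. CBLL1, a ubiquitin ligase subunit, stood at 70.3, 77.1 and 69.7 CPM, with replicate 2 high and replicates 1 and 3 not distinguished (log2 ratio −0.01). RBM15, which guides the complex to its RNA targets, stood at 42.2, 38.2 and 38.9 CPM, with replicate 1 high. Its difference between replicates 3 and 1 passed the test (log2 ratio −0.12, adjusted p = 0.0339, exact conditional binomial test), but not with DESeq2 size factors (adjusted p = 0.0774).

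Of the other N6-adenine methyltransferase genes and their cofactor, 5 of 5 were above 1 CPM. METTL16, which methylates the U6 small nuclear RNA and the transcript of the enzyme that makes the methyl donor, stood at 34.4, 33.8 and 14.6 CPM across replicates 1, 2 and 3. Replicate 3 was low, with log2 ratios of −1.24 (95% interval −1.37 to −1.10) and −1.21 (−1.35 to −1.08). Its counts were 1798, 1858 and 594. TRMT112, a cofactor of several methyltransferases, stood at 135, 132 and 161 CPM and METTL4 at 57.3, 55.8 and 50.2 CPM. PCIF1, which methylates adenosine next to the cap, stood at 26.0, 23.9 and 24.5 CPM, with no pair of libraries distinguished.

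Of 9 other reader genes with an ID, 8 were above 1 CPM. HNRNPA2B1, a nuclear RNA-binding protein proposed as a reader, stood at 1802, 1845 and 2188 CPM across replicates 1, 2 and 3, and FXR1 at 554, 559 and 498 CPM. YTHDC2, the YTH reader best known from meiosis, stood at 11.9, 12.8 and 9.17 CPM. HNRNPC was called below 1 CPM, with 1, 0 and 2 counts (adjusted p = 0.00342, edgeR quasi-likelihood), a call lost by the Wald test of DESeq2 (adjusted p = 0.0763). A library with 0 counts allows a level of up to 3 counts, which is 0.0573, 0.0546 and 0.0736 CPM across replicates 1, 2 and 3. HNRNPC encodes an abundant protein of most cells and has close copies in primate genomes, so the value is that of 1 gene ID under an unstated treatment of shared reads and gives no level for the gene.

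The other AlkB homologue genes, which encode dioxygenases related to FTO, were above 1 CPM in 5 of 5. ALKBH8, an enzyme of transfer RNA modification, stood at 9.04, 8.55 and 5.59 CPM across replicates 1, 2 and 3, with replicate 3 low. ALKBH3, which repairs alkylated nucleic acids, stood at 9.46, 8.62 and 16.1 CPM, with replicate 3 high (log2 ratios 0.77 and 0.90). ALKBH2, a DNA repair enzyme, and ALKBH7, a mitochondrial protein, were higher in replicate 3 by 0.24 to 0.39 on the log2 scale. Relatives of the eraser thus lay on both sides of the other libraries in replicate 3.

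Among the 5 genes of partner proteins or of the supply of methyl donor, all were above 1 CPM. CNOT1, the scaffold of the deadenylase that YTHDF2 recruits, stood at 778, 759 and 467 CPM across replicates 1, 2 and 3. Replicate 3 was low, with log2 ratios of −0.73 and −0.70, while YTHDF2 itself was highest in that library. SRSF3 and NXF1, a splicing and an export factor linked to YTHDC1, stood at 493, 506 and 560.5 CPM and at 80.3, 78.4 and 91.5 CPM. Both were highest in replicate 3, as YTHDC1 was. Of genes averaging 50 CPM or more, 39.4% and 38.9% were called higher in replicate 3 than in replicates 1 and 2. UPF1, a helicase of transcript decay, stood at 191, 194 and 163 CPM.

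**Figure D4:**
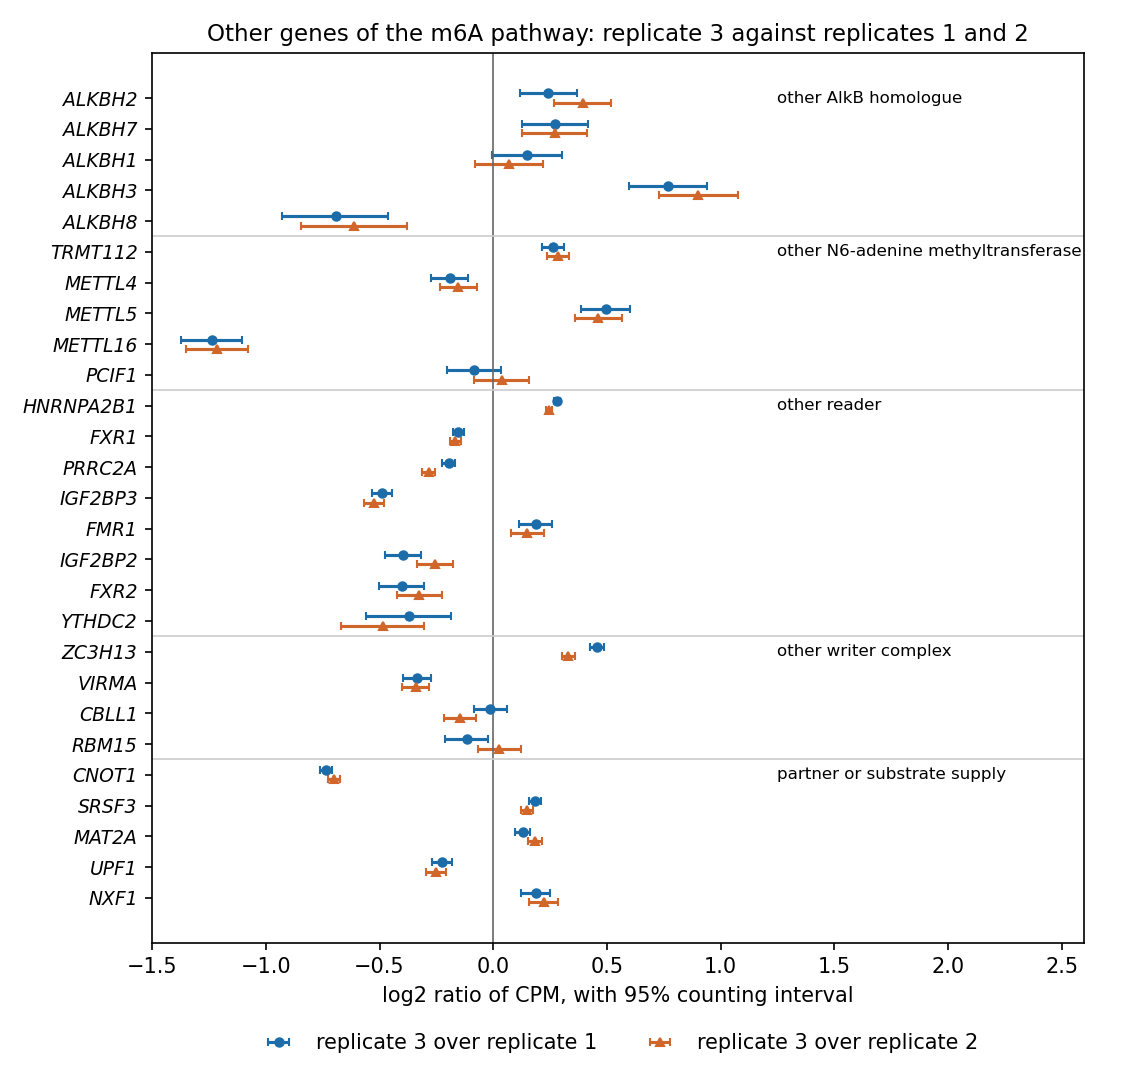
Log2 ratio of CPM (x axis) of replicate 3 over replicate 1 (circles) and over replicate 2 (triangles) for the 27 further pathway genes averaging 1 CPM or more, grouped by role, with 95% counting intervals. METTL16 lies lowest, at −1.24 and −1.21, and ALKBH3 highest, at 0.77 and 0.90.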

How the data were processed

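Per the labels' protocols, total RNA was extracted with a Qiagen kit and sequenced from Illumina libraries. Per the submitters' processing notes, reads were trimmed, aligned and counted by the authors with tools that include featureCounts 1.5.2, STAR 2.5.3a and Trim Galore 0.4.0. Which genome build, annotation, strand setting and rule for shared reads they applied is not given in the sources used here. Each deposited file holds unnormalized counts of 1 library by Ensembl ID.

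Symbols came from a name table that matched 12660 of 30811 IDs. CPM values were computed with TMM scaling (edgeR 4.0.16, limma 3.58.1, R 4.3.3). Each of 23432 genes with a count was tested against 1 CPM by the F statistic of an intercept-only quasi-likelihood fit, with a Poisson bound. For each gene, 2 libraries at a time were compared by a two-sided exact conditional binomial test (doubled smaller tail), with Benjamini-Hochberg adjustment over all genes within each of 3 pairs. Genes were called at an adjusted p under 0.05. The scripts were tested on simulated data. DESeq2 1.42.0 was an alternative. Figures used matplotlib 3.10.9.

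The 9 genes and the lists were chosen with earlier results of these data known. The text names each of the 9 genes and, per role of the pathway list, the 2 highest and 2 lowest by mean CPM, any that was not called above 1 CPM and any with a log2 ratio of at least 1 in size. A planned ratio of FTO over ALKBH5 could not be made. Reads without molecular identifiers are not independent molecules, so intervals and limits reflect counting error alone.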

Additional observations from a re-analysis of the deposited data

How the results depend on the processing

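The call above 1 CPM held for 9 of 9 genes under each of the 9 alternatives run, and 7 of 9 genes differed between replicates 3 and 1 under each other scaling, the low-count filter and halved counts. Requiring 1.5-fold left 0, 2 and 2 genes in the pairs of replicates 2 and 1, 3 and 1, and 3 and 2. Halving the counts, to allow for a double count of paired mates, left 0, 7 and 8. With DESeq2 size factors or the low-count filter, YTHDC1 also differed between replicates 1 and 2 (adjusted p = 0.0443 and 0.0465, exact conditional binomial test). Over all genes, calls below 1 CPM numbered 8851, against 1608 with the DESeq2 Wald test, 1242 after the filter, which removes low genes, and 13415 below 10 CPM. The cause of the DESeq2 difference was not tested. ALKBH8 lay above 1 CPM but 0.37 log2 units under 10 CPM (log2 value −0.37, adjusted p = 0.0695, edgeR quasi-likelihood). Ratios near 0 that changed sign, none of them called, were those of replicate 3 over 1 for YTHDF1 (0.00054) and CBLL1 (0.0039) with DESeq2 size factors and for METTL14 (−0.00048) with counts halved, and of replicate 2 over 1 for VIRMA (−0.00088) and ALKBH7 (−0.0037) with library sizes alone. RBM15 lost its difference between replicates 3 and 1 with DESeq2 size factors (adjusted p = 0.0774, exact conditional binomial test). Leaving out 1 library moved the mean within-library log2 ratio of WTAP over METTL3 between −0.0096 and 0.15, and that of YTHDF3 over YTHDF2 between −0.51 and −0.25. Fits on 2 libraries rest on the trend of the spread. No paired analysis was possible because all libraries belong to 1 group.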
